A study of Homo sapiens with 6 samples.

Results

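The genes described here are antisense RNAs, the annotated noncoding transcripts that run over or beside a protein-coding gene on the opposite strand, in a human mucosal melanoma cell line with and without knockdown of EZH2. They were selected on their level: every gene of biotype antisense whose mean over all 6 libraries was at least 30 normalized counts. The rule kept 368 of the 3300 antisense genes in a table of 30015 genes. Because the level chose them, their level is given only as a description, and the comparison of the groups is what was tested. The rule did not compare the groups, but its mean takes in both. A member that changed may therefore lie under 30 in the group where it is lower and have passed through the other group.

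Antisense RNAs are made by RNA polymerase II, often from a promoter that also fires in the coding direction, and many are spliced and polyadenylated like messenger RNA. Some act where they are made, by interfering with transcription of the coding gene or by recruiting chromatin regulators, while others serve as hosts of small nucleolar RNAs or microRNAs or have no known role. EZH2 is the catalytic subunit of Polycomb repressive complex 2 (PRC2), which places the methyl mark of silent chromatin on lysine 27 of histone H3, mostly at promoters rich in CpG. Several antisense RNAs, among them HOTAIR and KCNQ1OT1, have been described as partners of this complex.

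The cells were HMV-II, an established line of a vaginal mucosal melanoma. The Vector group (3 libraries) carried a lentiviral scrambled control shRNA and the shEZH2 group (3 libraries) a lentiviral shRNA against EZH2, headed sh1 in the table. Both were stable populations selected with puromycin and otherwise untreated, and RNA was selected on poly-A before sequencing. A single knockdown shRNA was sequenced, so its effects through EZH2 and through other transcripts cannot be told apart. Nothing in the labels says that the 3 replicates were separate cultures, so p-values measure the spread between these libraries, which may be technical.

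The reads counted on genes ranged from 13400290 to 15923029 in Vector and from 16129171 to 19128939 in shEZH2 libraries. EZH2 itself stood at 483, 437 and 552 normalized counts in Vector and at 237, 247 and 225 in shEZH2, so the groups did not overlap. It fell by 1.04 on the log2 scale (SE 0.14, limma adjusted p = 0.0142), and the exact two-sided permutation test gave p = 0.1, the smallest its 20 arrangements allow. All 9 melanocytic markers examined were listed, with sums from 75561 to 100764 normalized counts in Vector and from 78922 to 85373 in shEZH2, most of it PMEL. Within that sum TYR averaged 6343 in Vector and 3148 in shEZH2, and TYRP1 275 and 887. MITF averaged 1476 and 1742, MLANA 429 and 714, and S100B 779 and 1239. SOX10 averaged 17491 and 14571, PMEL 60992 and 56472, DCT 4342 and 3926, and MIA only 31.6 and 16.9. The markers thus moved in both directions. PTPRC of leukocytes stayed at 11.6 or less in every library and the 3 fibroblast markers summed to at most 10.4. The endothelial marker VWF was at 67.5 in Vector replicate 2 and from 19.1 to 24.1 elsewhere. The epithelial cadherin CDH1 averaged 414 in Vector and 342 in shEZH2. KRT5 and CD3E are not listed in the table. Vector replicate 2 stood apart from the other Vector libraries in many of the antisense RNAs, and the counts and named results that it moves are therefore also given without it.

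Windows of 300 bases around the transcription start were taken from RefSeq (GRCh38.p14) for members whose symbol matched. They are shown because PRC2 is best known at CpG-rich starts. A window was found for 120 of the 368 members, and in 72 of them the RefSeq start lay within 50 bases of the start in the deposited table. The windows below belong to 2 antisense RNAs that were higher in shEZH2, CHKB-DT and DDX11-AS1, and to 2 that were lower, STX18-AS1 and AATBC. STX18-AS1 was added to the named genes after its values were seen. Each is written 5′ to 3′ on the strand of the antisense RNA, with every CG in capitals. CHKB-DT, chr22:50582776-50583075, plus strand, and DDX11-AS1, chr12:31073798-31074097, minus strand, come first, followed by STX18-AS1, chr4:4541881-4542180, plus strand, and AATBC, chr21:43812518-43812817, minus strand.
CHKB-DT: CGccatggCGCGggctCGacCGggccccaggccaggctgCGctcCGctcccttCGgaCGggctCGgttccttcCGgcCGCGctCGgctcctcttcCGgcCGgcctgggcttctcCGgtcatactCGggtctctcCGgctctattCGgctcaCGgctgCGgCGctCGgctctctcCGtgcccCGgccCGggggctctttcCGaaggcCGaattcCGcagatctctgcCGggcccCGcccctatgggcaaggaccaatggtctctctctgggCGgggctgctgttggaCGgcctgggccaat
DDX11-AS1: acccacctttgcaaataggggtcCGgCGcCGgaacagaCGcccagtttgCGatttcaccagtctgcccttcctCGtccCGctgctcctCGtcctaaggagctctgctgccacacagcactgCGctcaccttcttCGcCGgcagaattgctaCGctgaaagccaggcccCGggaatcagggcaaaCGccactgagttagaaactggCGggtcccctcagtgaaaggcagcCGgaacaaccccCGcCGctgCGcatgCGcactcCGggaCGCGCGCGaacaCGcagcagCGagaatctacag
STX18-AS1: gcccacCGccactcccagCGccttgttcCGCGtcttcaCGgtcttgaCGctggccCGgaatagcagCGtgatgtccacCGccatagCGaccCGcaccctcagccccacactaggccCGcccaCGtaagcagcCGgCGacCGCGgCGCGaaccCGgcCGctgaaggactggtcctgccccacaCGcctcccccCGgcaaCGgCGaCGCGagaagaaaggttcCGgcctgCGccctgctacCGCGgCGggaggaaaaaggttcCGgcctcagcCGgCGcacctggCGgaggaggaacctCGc
AATBC: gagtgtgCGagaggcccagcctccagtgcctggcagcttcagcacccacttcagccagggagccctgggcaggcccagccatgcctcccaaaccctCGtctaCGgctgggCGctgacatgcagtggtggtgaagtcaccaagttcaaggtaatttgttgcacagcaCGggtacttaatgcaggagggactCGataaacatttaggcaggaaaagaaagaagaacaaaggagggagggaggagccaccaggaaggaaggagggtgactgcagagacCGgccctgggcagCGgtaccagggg

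The CG dinucleotide occurred 34 times in the CHKB-DT window, 27 times in that of DDX11-AS1 and 37 times in that of STX18-AS1, but 8 times in that of AATBC. The median was 14 over all 35116 RefSeq windows of this length and 27 over the 72 members with a nearby start. Members that were higher in shEZH2 had a median of 34 (n = 5), those that were lower 27 (n = 5) and those that passed no threshold 27 (n = 62). With 5 windows in each called group, these medians are a description and were not tested. The letters TATAAA, searched on both strands, were found in 8.33% of the 120 matched windows and in 11.5% of all windows.

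By mean normalized count the members ran from 30.1 to 4494, with a median of 60.5. A total of 255 lay under 100, 113 at 100 or more and 8 at 1000 or more. Their median exon length was 2393 bases, and 201 had no symbol beyond the name of a genomic clone. At the limit of the rule, AC018682.1 was kept with a mean of 30.1 and MRPS30-DT was left out with 29.9. The next members kept, AL450998.2, AC098484.4, AC027097.1 and LINC01311, had means from 30.4 to 30.9, and the next left out, FAM66C, WEE2-AS1, AC087289.5 and NAPA-AS1, from 29.9 down to 29.1.

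The table lists genes by both strands, and the sources used here do not say whether reads were counted by strand. In the annotation, 68 genes lie wholly within opposite-strand exons of a gene with a mean of at least 200, and 0 of them were listed, against 49.1% of all 60063 annotated genes. Among listed genes, however, 64 had at least 95% of their exon bases on opposite exons, 3 of them members with means up to 385. Whether strand was used was not settled by these counts. If it was not, reads of an antisense RNA and unspliced reads of the coding gene around it cannot be told apart. Of 365 members with an annotation match, 94 had no exon base on an opposite exon and 21 had at least 50% of their exon bases there. Of the 94 without any such base, 8 (8.51%) were higher and 7 (7.45%) lower by the threshold given in the next paragraph, and of the 271 with some, 16 (5.90%) and 23 (8.49%), each near the share of all genes.

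Against this background, EZH2 knockdown was compared with Vector for each member (limma on log2 of the normalized count plus 1). This scale understates the change of genes with low counts. A member was called where the unadjusted p was under 0.05 and the log2 fold change exceeded 0.585 in size, which is 1.5-fold and the threshold of the study. By this rule 24 members were higher and 31 lower in shEZH2, while 313 passed neither. The shares were 6.52% and 8.42%, beside 7.55% and 7.07% of all 15251 genes tested, so the antisense RNAs were called at about the rate of the table as a whole. At an adjusted p under 0.05 with the same fold, 5 were higher and 7 lower, where the share of all genes was 2.26% and 1.83%. Libraries of the groups did not overlap in 102 members (27.7%), against 34.8% of all genes. The median log2 fold change was -0.01 over the members and 0.04 over all genes.

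These counts moved with single libraries. Without Vector replicate 2, 24 members were higher and 23 lower, where 1075 and 860 of all 15251 genes were. Of the 24 and 31 above, 16 and 17 were called again. Without shEZH2 replicate 1 or replicate 3 the number higher fell to 15, and without Vector replicate 1 or 3 it was 34. With any shEZH2 library left out, limma called 0 members at the adjusted threshold in either direction, against 15 to 20 higher and 21 to 26 lower at the unadjusted one. Without Vector replicate 2 the adjusted counts were 13 higher and 21 lower, and without Vector replicate 1 or 3 at most 1 in each direction. Calls that held with each of the 6 libraries left out in turn numbered 9 among the higher and 15 among the lower. Apart from the 1075 and 860 above, counts over all genes in these fits are not given here. Whether the calls of antisense RNAs were less stable than those of other genes was therefore not tested.

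**Figure D1:**
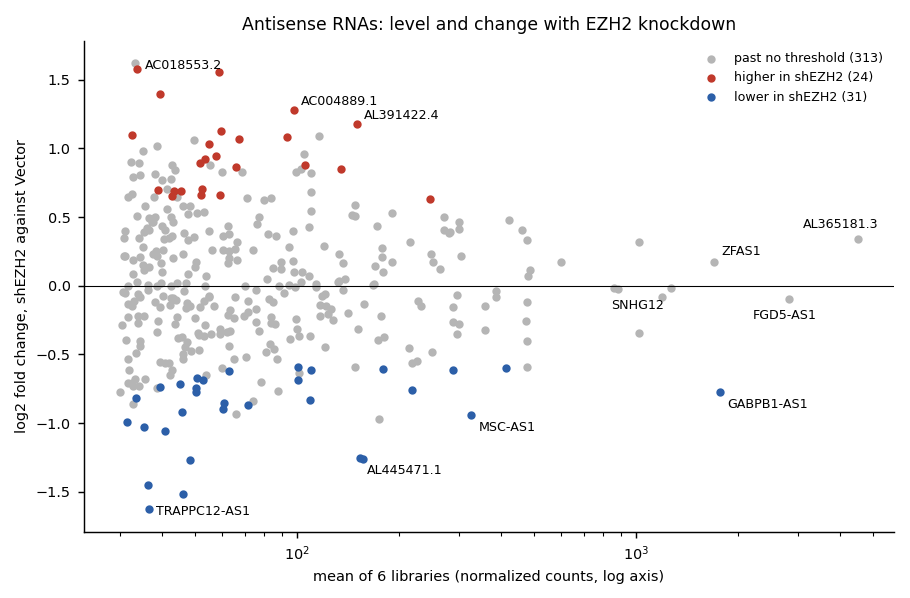
Each point is 1 of the 368 antisense RNAs, with its mean normalized count over 6 libraries on a log axis and its log2 fold change (shEZH2 against Vector) on the vertical axis. The 24 members called higher (red) and 31 called lower (blue) lie mostly under 400 normalized counts, and of the labelled high-level members only GABPB1-AS1 was called.

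The members with the highest mean counts include host genes of small nucleolar RNAs and long-known noncoding RNAs, and 1 of the 10 was called. GABPB1-AS1 (chr15:50354959-50372202, plus strand) starts within GABPB1, the gene of a subunit of the ETS factor GABP, and has been described in liver cancer cells undergoing ferroptosis. It stood at 2023, 2522 and 2159 normalized counts in Vector and at 1369, 1345 and 1199 in shEZH2. All 3 shEZH2 libraries lay under all 3 Vector libraries. From 2235 ± 258 to 1304 ± 91.9 (SD, n = 3), it fell by 0.77 on the log2 scale (SE 0.14, limma adjusted p = 0.0305). The leave-one-out values ranged from -0.84 to -0.68, all called, but with a trend over gene length removed it fell by 0.50, under the fold threshold, and lost its call. GABPB1 itself, with 390, 298 and 444 in Vector and 305, 371 and 310 in shEZH2, overlapped between the groups (log2 fold change -0.19, SE 0.19).

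AL365181.3, which lies on chr1:156641666-156644887 within the span of BCAN, the gene of the brain proteoglycan brevican, had the highest mean count. Its values were 3538, 5088 and 3394 in Vector and 4955, 4835 and 5155 in shEZH2. The shEZH2 libraries lay above Vector replicates 1 and 3 and around replicate 2. The log2 fold change was 0.34 (SE 0.18, limma adjusted p = 0.305) with all libraries and 0.52 without Vector replicate 2, under the fold threshold in both. FGD5-AS1, next in mean count, gave 2965, 2705 and 3084 against 2437, 2925 and 2845, with overlapping groups (log2 fold change -0.10, SE 0.14). HCG18, from the major histocompatibility complex region, gave 1058, 1260 and 1107 in Vector and 824, 919 and 957 in shEZH2. Its groups did not overlap, but the log2 fold change of -0.34 (SE 0.14) was under the threshold.

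The small nucleolar RNA hosts ZFAS1, SNHG7 and SNHG12 shared a pattern across libraries. ZFAS1 was at 2431, 543 and 2295 in Vector and at 1744, 1849 and 1343 in shEZH2. SNHG12 was at 1442, 240 and 1318 in Vector and at 971, 708 and 633 in shEZH2. SNHG7 was at 1219, 364 and 1328, then at 1399, 861 and 954. In each, Vector replicate 2 was the lowest of the 6 libraries, and the other Vector libraries lay above most or all of the shEZH2 ones. With all libraries their log2 fold changes were 0.17, -0.02 and 0.32 in the order ZFAS1, SNHG12 and SNHG7, none of them called. Without Vector replicate 2 they were -0.53, -0.86 and -0.28, and SNHG12 was then called lower. The direction of ZFAS1 and SNHG7 therefore rests on 1 library, and for ZFAS1 the count-based tools also gave a negative value with all libraries (-0.10 with DESeq2).

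FLJ46906, AC020916.1 and AL590666.2 complete the 10 and were not called, with log2 fold changes of -0.02, -0.08 and -0.02. FLJ46906 overlaps the start of NHSL1, an actin regulator, by 24 bases. It stood at 1818, 678 and 1463 in Vector while NHSL1 stood at 3346, 9046 and 3268, so Vector replicate 2 was the lowest library for the antisense RNA and the highest for its partner.

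Most of the changed members named in this and the next paragraphs were picked as called and without overlap between groups. Their separation is therefore part of the choice. Among members with higher counts after knockdown, the largest change with an adjusted p under 0.05 was that of AC018553.2 (chr16:54285604-54289568, plus strand). It starts 1159 bases inside IRX3, the gene of an Iroquois homeobox transcription factor, and runs the other way. It was at 10.5, 23.3 and 17.3 normalized counts in Vector and at 53.3, 45.5 and 52.5 in shEZH2, without overlap. The mean rose from 17.0 ± 6.42 to 50.4 ± 4.29 (SD, n = 3), a log2 fold change of 1.58 (SE 0.32, limma adjusted p = 0.0423). IRX3 stood at 374, 219 and 257 in Vector and 456, 371 and 404 in shEZH2, a log2 fold change of 0.57 (SE 0.22) just under the threshold.

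AL391422.4 (chr6:3751111-3753871, plus strand) lies head-to-head with PXDC1, a gene named for its PX domain. It read 113, 69.9 and 95.7 in Vector and 209, 200 and 214 in shEZH2. Every shEZH2 library was above every Vector library, and the log2 fold change was 1.18 (SE 0.20, limma adjusted p = 0.0267). PXDC1 rose with it, from 1531, 970 and 1590 to 2153, 1924 and 2046 (log2 fold change 0.61, SE 0.21, called at the unadjusted threshold). CHKB-DT (chr22:50583026-50587640, plus strand) starts 61 bases from the start of the annotated CHKB-CPT1B readthrough of the choline kinase beta gene. It gave 20.9, 21.0 and 19.3 in Vector and 41.9, 43.1 and 49.6 in shEZH2. The 3 Vector libraries were almost equal and all lay under the shEZH2 libraries, with a log2 fold change of 1.10 (SE 0.23, limma adjusted p = 0.0429).

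AC116351.1 (chr5:987180-997308, minus strand) overlaps no coding gene. Its counts were 31.4, 36.1 and 39.7 in Vector and 67.6, 71.1 and 83.1 in shEZH2, again without overlap (log2 fold change 1.03, SE 0.21, limma adjusted p = 0.0393). AC004889.1 (chr7:144194858-144280547, plus strand) spans OR2A42, an olfactory receptor gene with a near-identical copy, OR2A1, so its reads could have been split between copies. It gave 52.3, 65.2 and 49.9 in Vector and 98.1, 145 and 177 in shEZH2, a log2 fold change of 1.28 (SE 0.25, limma adjusted p = 0.0380). AC018553.2, AL391422.4, CHKB-DT, AC116351.1 and AC004889.1 were all called with each library left out, but their adjusted p reached from 0.163 to 0.235 at the highest over the alternatives.

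Further members were higher at the unadjusted threshold without overlap between the groups. AC006333.2 starts 1 base from the start of WASL, the gene of the actin nucleation factor N-WASP, on the other strand. It was at 33.5, 12.8 and 50.9 in Vector and at 75.2, 85.4 and 94.5 in shEZH2 (log2 fold change 1.56, and 1.02 without Vector replicate 2). WASL itself was lower, with a log2 fold change of -0.63. AC004988.1 lies within SUGCT, a mitochondrial CoA-transferase gene, and gave 1.40 where SUGCT gave 0.73, both called. AC093673.1, 585 bases from the start of the zyxin gene ZYX, gave 1.09. AC008966.1, head-to-head with the molybdopterin synthase gene MOCS2, gave 1.13, and lost its call without shEZH2 replicate 1 or 3.

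SNAI3-AS1 spans SNAI3, a zinc finger gene of the Snail family. It stood at 45.0, 24.4 and 38.7 in Vector and at 86.6, 51.9 and 63.0 in shEZH2, a log2 fold change of 0.89 (SE 0.31, limma adjusted p = 0.144). SNAI3 was at 11.5, 6.99 and 5.09, then at 17.1, 16.8 and 14.3 (log2 fold change 1.01, SE 0.39). Both were higher in all 3 shEZH2 libraries, and the call of SNAI3-AS1 was lost without shEZH2 replicate 1 (0.70). AC125616.1, beside the calcium-binding protein gene CABP1, gave 0.95 and lost its call without Vector replicate 2 (0.57) or any shEZH2 library.

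**Figure D2:**
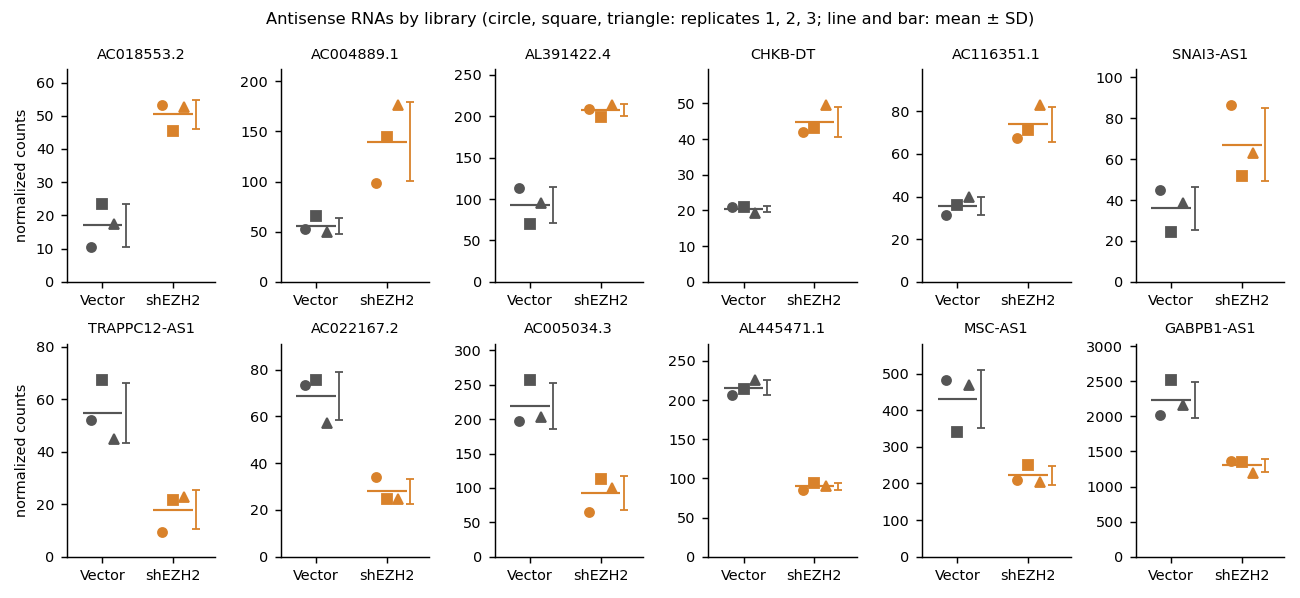
Normalized counts of 12 antisense RNAs, 6 higher in shEZH2 (top row) and 6 lower (bottom row), with 1 marker for each library and a line with a bar for the mean ± SD of 3 libraries. In all 12 panels the Vector and shEZH2 libraries do not overlap, from 10.5 to 23.3 against 45.5 to 53.3 for AC018553.2 and from 2023 to 2522 against 1199 to 1369 for GABPB1-AS1. All but GABPB1-AS1 were named by a rule that asked for groups without overlap, so their separation was fixed by the choice.

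Of the members that fell, AL445471.1 (chr1:24961345-24963097, plus strand) had the smallest adjusted p. It lies inside RUNX3, the gene of a Runt family transcription factor, with no exon base on an exon of the other strand. It was at 207, 214 and 226 normalized counts in Vector and at 85.7, 94.2 and 89.7 in shEZH2. The libraries of each group lay close together and far from the other group. The mean went from 216 ± 9.59 to 89.9 ± 4.27 (SD, n = 3) and fell by 1.25 on the log2 scale (SE 0.15, limma adjusted p = 0.00937). RUNX3 also fell, from 5286, 7631 and 5001 to 3301, 3236 and 3364, by 0.83 on the log2 scale (SE 0.18). The ratio of the antisense RNA to RUNX3 did not pass the threshold (-0.42, SE 0.26).

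AC005034.3 (chr2:75660462-75662208) lies inside GCFC2 with no exon base on an opposite exon. Its counts were 198, 257 and 203 in Vector and 64.7, 113 and 100 in shEZH2, with a fall of 1.26 (SE 0.24, limma adjusted p = 0.0346). AC022167.2 (chr16:8848105-8860456), tail-to-tail with CARHSP1, went from 73.2, 75.7 and 57.0 to 34.3, 24.8 and 24.8. It fell by 1.27 (SE 0.24, limma adjusted p = 0.0335). In both the groups did not overlap, and the partners GCFC2 and CARHSP1 gave -0.40 and -0.34, under the threshold.

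MSC-AS1 runs from beside the gene of the transcription factor musculin (MSC) across TRPA1, the gene of an irritant-sensing ion channel. It was at 483, 340 and 468 in Vector and at 210, 251 and 204 in shEZH2. The groups did not overlap and it fell by 0.94 (SE 0.18, limma adjusted p = 0.0359), or by 1.10 without Vector replicate 2. TRPA1 was at 27.2, 68.7 and 17.3 in Vector, with replicate 2 the highest of all 6 libraries, and its groups overlapped. RASSF8-AS1 went from 248, 316 and 260 to 175, 162 and 146 and fell by 0.76 (SE 0.16, limma adjusted p = 0.0467). Its head-to-head partner RASSF8, of the Ras association domain family, fell by 0.81. RFPL1S (chr22:29436534-29478175) went from 71.1, 81.5 and 84.5 to 38.1, 43.9 and 43.9 and fell by 0.90 (SE 0.19, limma adjusted p = 0.0471), while its partner RFPL1 was at 1.16 or less in every library. The adjusted p of the 7 members that fell reached 0.0977 for AL445471.1 and from 0.157 to 0.237 for the others at the highest over the alternatives.

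The largest fall was that of TRAPPC12-AS1 (chr2:3481242-3482409, minus strand), inside TRAPPC12, the gene of a subunit of the TRAPP vesicle-tethering complex. It was at 52.3, 67.5 and 44.8 in Vector and at 9.52, 21.6 and 22.9 in shEZH2, without overlap, and fell by 1.63 (SE 0.37, limma adjusted p = 0.0576). TRAPPC12 stood at 797, 1307 and 896, then at 975, 955 and 1011, a log2 fold change of 0.00 (SE 0.20). AATBC went from 46.0, 133 and 35.6 to 21.9, 21.6 and 18.1 and fell by 1.51, or by 0.95 without Vector replicate 2, which was its highest library. AC080013.1, head-to-head with the retinoid-responsive gene RARRES1, had the same high library (30.3, 92.0 and 42.8, then 15.2, 15.2 and 22.9) and fell by 1.45, or by 1.01 without it. TRAPPC12-AS1, AATBC and AC080013.1 lay under 30 in every shEZH2 library, so they were members only through Vector.

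AC018529.2 lies inside MBP, the gene of myelin basic protein. It went from 40.8, 73.3 and 52.9 to 21.9, 29.5 and 25.8 and fell by 1.05, where MBP fell by 0.61. AC132872.3, inside the casein kinase 1 delta gene CSNK1D, went from 52.3, 50.1 and 40.7 to 26.7, 19.2 and 22.9 and fell by 1.03, with CSNK1D at -0.02. The groups of both antisense RNAs did not overlap. Both lay under 30 in every shEZH2 library and were members only through Vector. AC139795.2 fell by 0.92 and AL450992.2, tail-to-tail with the thioesterase gene THEM5, by 0.99. The call of AL450992.2 was lost without Vector replicate 1 or 2 (-0.73 without replicate 2) or shEZH2 replicate 1 or 2 (-0.62 without replicate 1), and with the length trend removed (-1.06). STX18-AS1, whose start is shown above, went from 61.7, 68.7 and 60.1 to 31.4, 39.9 and 39.1 and fell by 0.77 (SE 0.21), while STX18, a syntaxin gene on the other strand, gave 0.18.

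Of 36 antisense RNAs listed for a described function, 24 were tested and 13 were members. Over the 24, 3 were higher and 2 lower, beside 7.55% and 7.07% of all genes, with a median log2 fold change of 0.06. DLEU2, the host of the microRNAs miR-15a and miR-16-1, was at 71.1, 64.0 and 79.4 in Vector and at 125, 201 and 90.7 in shEZH2. The groups did not overlap and the log2 fold change was 0.88 (SE 0.29, limma adjusted p = 0.137), but without shEZH2 replicate 2, its highest library, it was 0.57 and not called. DDX11-AS1, described in sister chromatid cohesion and starting 2 bases from the helicase gene DDX11, was at 27.2, 24.4 and 36.7, then at 59.0, 38.3 and 47.7. Its log2 fold change was 0.70 (SE 0.27), lost without Vector replicate 1 or 2 or shEZH2 replicate 1 or 3, and with the length trend removed (0.50). The third that was higher, ST7-AS1, had a mean of 13.1 and was no member. GABPB1-AS1 and SLC7A11-AS1 were lower. SLC7A11-AS1 lies opposite the cystine transporter gene SLC7A11 that the study turns on, but its biotype in the table is processed transcript, so it is no member (mean 66.7, log2 fold change -1.15, SE 0.40, and -0.71 without Vector replicate 2).

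KCNQ1OT1, the imprinted antisense RNA within KCNQ1, was at 142, 441 and 141 in Vector and at 87.6, 103 and 128 in shEZH2. Every Vector library was above every shEZH2 library, but Vector replicate 2 was over 3 times as high as the other Vector libraries. The log2 fold change was -0.97 (SE 0.44, limma adjusted p = 0.231) and did not pass, while DESeq2 and edgeR on the reads passed it at the unadjusted threshold. Leaving out Vector replicate 2 gave -0.43, under the fold threshold. FOXD3-AS1, head-to-head with the neural crest factor FOXD3, was at 143, 31.4 and 103 in Vector and at 158, 103 and 120 in shEZH2, with overlapping groups. It gave 0.68 with all libraries and 0.04 without Vector replicate 2. The remaining members of this list, NNT-AS1, PSMA3-AS1, MCM3AP-AS1, GNAS-AS1, TTN-AS1, FGD5-AS1, ZFAS1 and SNHG7, gave log2 fold changes from -0.48 to 0.32, none called.

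HOX clusters are classic PRC2 targets, and 4 of their antisense RNAs were members. None of the 10 tested was called with all libraries, beside 7.55% higher and 7.07% lower of all genes. HOTAIRM1 was at 197, 48.9 and 148 in Vector and at 97.1, 102 and 108 in shEZH2, a log2 fold change of -0.14 (SE 0.47). Vector replicate 2 was its lowest library, and without it the value was -0.73 and HOTAIRM1 was called lower. HAGLR, in the HOXD cluster, gave 0.05 with 109, 156 and 145 against 134, 159 and 128. HOTAIR, in the HOXC cluster, gave 0.23 with 32.4, 33.8 and 36.7 against 48.6, 33.5 and 40.1. HOXB-AS3 gave 0.36. The groups overlapped for HAGLR, HOTAIR and HOXB-AS3. Without Vector replicate 2, 2 of the 10 were called lower and 0 higher, beside 860 lower and 1075 higher of all 15251 genes. Besides HOTAIRM1 this was HOXD-AS2, which is no member (mean 25.1, log2 fold change -0.80 without that library).

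Genes of PRC2, and genes whose products process or remove RNAs, were counted from lists chosen by function, beside 7.55% higher and 7.07% lower over all genes. Of 12 PRC2 genes tested, 0 were higher and 1 was lower, EZH2, which is the target of the shRNA. Of 19 genes of the nuclear exosome and its adaptors 0 were higher and 1 lower, with a median log2 fold change of 0.19 (-0.05 without Vector replicate 2). The 1 was ZFC3H1, a zinc finger protein of the exosome adaptor PAXT, which fell by 0.74 (SE 0.15, limma adjusted p = 0.0432). Of 16 genes of cleavage, polyadenylation and termination 0 were higher and 1 lower, the termination factor PCF11, which fell by 0.80 (SE 0.15, limma adjusted p = 0.0340). Leaving out Vector replicate 2 added CSTF3, a cleavage stimulation factor, at -0.59. Of 10 genes of nonsense-mediated decay 0 were higher and 3 lower, SMG1, UPF3B and UPF2, at -0.88, -0.64 and -0.66. Leaving out Vector replicate 2, 1 of these 3 was called, UPF3B.

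By the coordinates in the table, 328 members overlapped a protein-coding gene on the other strand and 40 did not. Where more than 1 coding gene overlapped (61 members), the one with the longest overlap was taken as the partner. A total of 117 members were head-to-head, so that both starts lay in the overlap, 93 lay inside the coding gene, 83 were tail-to-tail and 35 spanned it. In 168 members the start was within 1 kb of a coding start on the other strand, including 27 of the 40 without overlap.

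By arrangement, the calls are set beside the 7.55% higher and 7.07% lower of all genes. Of the 117 head-to-head members, 10 (8.55%) were higher and 6 (5.13%) lower, with a median log2 fold change of 0.21. Of the 93 inside members 5 (5.38%) were higher and 11 (11.8%) lower (median -0.17), and of the 83 tail-to-tail members 2 (2.41%) were higher and 9 (10.8%) lower (median -0.15). The 35 spanning members gave 3 and 3 (median 0.01), and the 40 without a partner 4 and 2 (median 0.29). Without Vector replicate 2 the medians were 0.06 head-to-head, -0.00 inside, -0.09 tail-to-tail, 0.02 spanning and 0.08 without a partner, so that all but the spanning one moved toward 0. With the trend over gene length removed they were 0.06 head-to-head, 0.12 without a partner and -0.08 spanning, but -0.31 inside and -0.26 tail-to-tail, farther from 0. The counts without that library were 10 higher and 8 lower head-to-head, 4 and 6 inside, and 1 and 4 tail-to-tail. No test between arrangements was made.

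**Figure D3:**
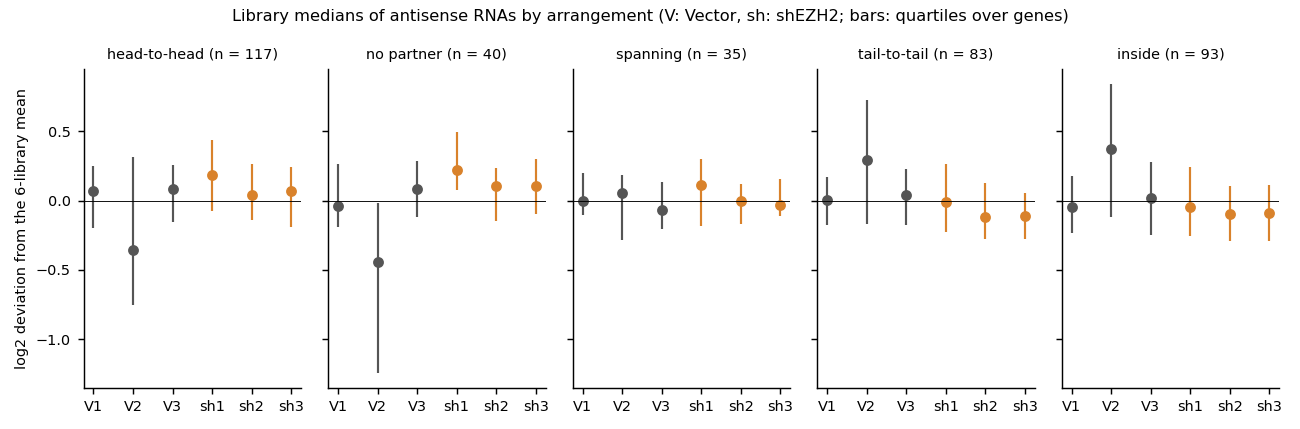
Median log2 deviation of each library from the mean of all 6, over the antisense RNAs of each arrangement, with bars for the quartiles over genes. Vector replicate 2 has a median of -0.35 for head-to-head members and -0.44 for those without a partner, but 0.37 for inside and 0.29 for tail-to-tail members.

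Among the 6 libraries, Vector replicate 2 held the highest value of 139 members (37.8%) and the lowest of 132 (35.9%). It was over 2 times the next library in 19 members and under 0.5 times the next in 39. The mean chi-square between the reads of 2 libraries over the members was 2.02 for Vector replicates 1 and 3, but 22.2 and 21.4 for replicate 2 against replicates 1 and 3. Between shEZH2 libraries it ran from 2.25 to 4.81. These shares and chi-squares cover the members only, and those of all genes are not given here. Vector replicate 2 also stood apart in coding genes, among them SMG1 (4400, 9268 and 4420 in Vector) and EXOSC5 (1255, 454 and 1303). The share of Vector replicate 2 in the medians by arrangement is given by the values above, and what set it apart was not tested. HHIP-AS1 had the highest log2 fold change of all members, 1.62 (SE 0.70), yet was not called, since its unadjusted p was not under 0.05. It was at 26.1, 3.49 and 28.5 in Vector and at 56.2, 35.1 and 49.6 in shEZH2, without overlap, and gave 0.74 without Vector replicate 2. MINCR was at 135, 15.1 and 125 in Vector and gave 1.09, or 0.09 without it. Both were picked after their values were seen.

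**Figure D4:**
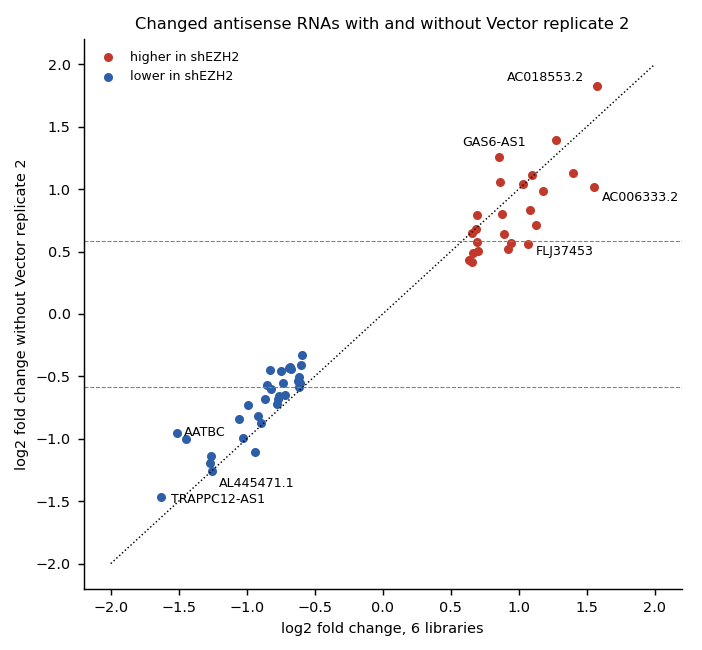
Log2 fold change of the 55 called antisense RNAs with all 6 libraries (horizontal axis) and without Vector replicate 2 (vertical axis), with dashed lines at the fold threshold and a dotted line of equality. All 55 keep their direction, and AATBC moves from -1.51 to -0.95 while AL445471.1 stays at -1.25 and -1.26.

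Each antisense RNA was then set beside its coding partner. The partner was tested in 297 pairs with 290 different partners, and had a mean under 10 in 31. Both were called in the same direction in 10 pairs and in opposite directions in 1, the antisense RNA alone in 35, the partner alone in 40 and neither in 211. Taken alone, 8.28% of the 290 partners were higher and 8.62% lower. Joint calls over all 660 pairs of the table were not counted. Whether the 10 and the 1 differ from what separate calls would give was therefore not tested. The log2 fold changes had the same sign in 174 of the 297 (58.6%), a share that was not set beside that of unrelated genes. Across pairs, Pearson's r was 0.33 with all libraries and 0.32 without Vector replicate 2, as a description only, since both genes of a pair come from the same libraries and may share reads.

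The 10 pairs called in the same direction were 3 head-to-head, 3 inside, 3 tail-to-tail and 1 spanning. Beside AL445471.1 and RUNX3, AL391422.4 and PXDC1, SNAI3-AS1 and SNAI3, AC004988.1 and SUGCT, AC018529.2 and MBP, AL450992.2 and THEM5, and RASSF8-AS1 and RASSF8, they were AC005288.1 with MED1, GAS6-AS1 with GAS6, and AC004264.1 with LIF. LIF, the gene of the cytokine leukemia inhibitory factor, gave 1.19 (SE 0.16) and AC004264.1 gave 0.70. AC005288.1 and the Mediator subunit gene MED1 gave -0.60 and -0.95, but 71.6% of the exon bases of this antisense RNA lie on opposite exons. The 1 opposite pair was FLJ37453 and SPEN, the gene of a transcriptional repressor. FLJ37453 was at 64.8, 19.8 and 54.0 in Vector and at 109, 77.5 and 79.2 in shEZH2, where SPEN was at 2424, 5408 and 2400, then at 1649, 1928 and 2123. The groups did not overlap in either, but in both Vector replicate 2 lay farthest from the shEZH2 libraries. The values were 1.07 and -0.74, and FLJ37453 lost its call without that library (0.56) and without any one of the shEZH2 libraries.

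The per-library ratio of antisense RNA to partner was tested in the same way over all 660 pairs of the table. Among the members, 20 ratios were higher and 20 lower in shEZH2, 6.73% each of 297, beside 6.06% and 7.27% of all pairs. A single member ratio had an adjusted p under 0.05, where the share of all pairs was 0.758%. It was that of AC097359.2 (chr3:37241789-37244177, minus strand), head-to-head with GOLGA4, the gene of a golgin of the trans-Golgi. AC097359.2 was at 139, 96.6 and 120 in Vector and at 169, 175 and 186 in shEZH2. GOLGA4 was at 3610, 5111 and 3289 in Vector and at 1267, 1042 and 1132 in shEZH2. Neither overlapped between groups, the antisense RNA lying above Vector and the coding gene far under it. The log2 ratio rose by 2.36 (SE 0.33, limma adjusted p = 0.0123), mostly through the fall of GOLGA4 by 1.78, while AC097359.2 rose by 0.58, just under the threshold. It ranged from 2.04 to 2.55 with each library left out.

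The next ratios by p did not pass the adjusted threshold. RUSC1-AS1 gave 0.47 where its tail-to-tail partner FDPS, the farnesyl diphosphate synthase gene of the mevalonate pathway, gave 1.66, a log2 ratio of -1.19 (SE 0.26). FDPS was at 1413, 1124 and 1639 in Vector and at 4595, 4175 and 4258 in shEZH2, and RUSC1-AS1 at 223, 277 and 259, then at 365, 334 and 347. Neither overlapped between groups. TRAPPC12-AS1 gave a ratio of -1.63 (SE 0.39) through the antisense RNA alone. AC105285.1 and GALNT7, a glycosyltransferase gene of the mucin-type O-glycan pathway, gave 0.46 and -1.03, a ratio from 1.23 to 1.81 with each library left out. KCNK15-AS1 and WISP2, a gene of the CCN family, gave 0.10 and 1.13, a ratio of -1.04 (SE 0.29). AC132872.3 and CSNK1D gave -1.01 (SE 0.30). The ratios of these 5 pairs kept their direction with each library left out.

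**Figure D5:**
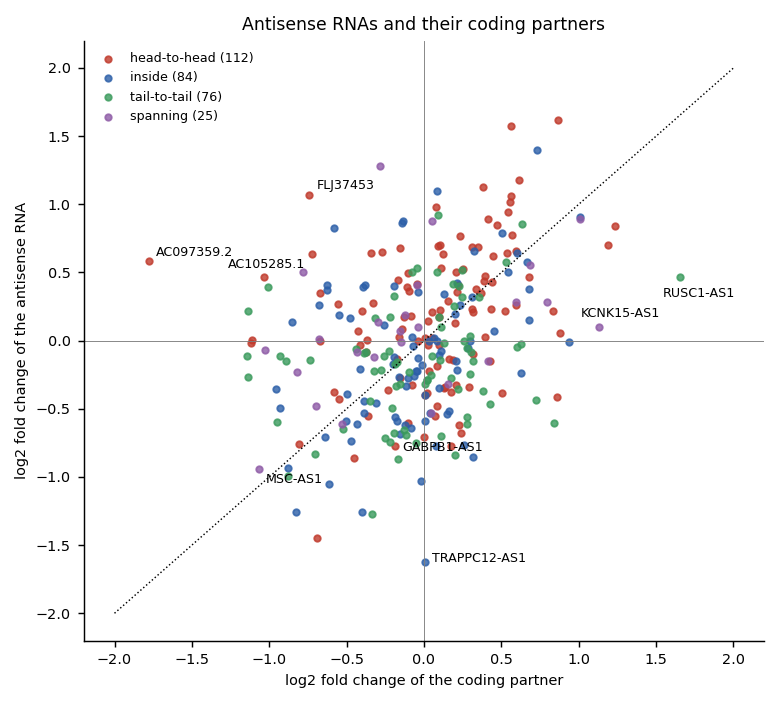
Log2 fold change of the coding partner (horizontal axis) and of the antisense RNA (vertical axis) in 297 pairs, coloured by arrangement, with a dotted line of equality. Points lie in all quadrants with 174 of 297 on the same side of 0, and AC097359.2 with GOLGA4 lies farthest from the line.

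Other classes of genes with the same minimum of 30 gave similar shares. Of 296 lincRNA genes, 26 (8.78%) were higher and 28 (9.46%) lower, with a median log2 fold change of 0.08. Of 11457 protein-coding genes, 7.50% were higher and 6.64% lower, with a median of 0.05. Among the 448 antisense genes with a mean from 10 to under 30, 22 were higher and 34 lower (median -0.09). No test of the difference between these classes was made.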

How the data were processed

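RNA from 3 Vector and 3 shEZH2 libraries of HMV-II cells was sequenced on an Illumina instrument after poly-A selection. The submitters' processing notes name featureCounts v1.5.0-p3 for counting and DESeq2 1.20.0. Values in the deposited table are a signal that the authors made by dividing the read count of a gene by a size factor for each library. The aligner and strand setting are not given in the sources used here. Coordinates were read as GRCh38, since 47.0% of 15272 genes shared an end with that build and 0.681% with GRCh37. Fold changes and p-values of the authors' own comparison are also in the table and were not used. The number of single-library columns left unused was 0.

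Values were whole multiples of the value of 1 read for 100% of entries in each library (tolerance 1e-06), which gave back the reads for DESeq2 1.42.0 and edgeR 4.0.16 as alternatives. Because the values were normalized, the groups were compared with limma 3.58.1 (R 4.3.3, lmFit and eBayes with a trend) on log2(normalized count + 1). The 15251 genes averaging 10 or more were tested, with Benjamini-Hochberg adjustment over all of them. Ratios to the coding partner were fitted in the same way over 660 pairs. The scripts were tested on simulated data in which every library had the same spread. No simulated library stood apart as Vector replicate 2 does, so that case was not covered. Tables and plots used Python 3.11.15, pandas 2.3.3 and matplotlib 3.10.9.

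Genes named are the 10 members with the highest mean, called members without overlap between groups (at most 12 in each direction, by log2 fold change), members of the HOX and described-function lists with SLC7A11-AS1, the 6 pairs with the smallest ratio p, and 5 genes on each side of the limit of 30. Others were named after their values were seen. The members and lists were chosen with earlier results of these data known. Alternatives were other tools and scalings, pseudocounts of 0.1 and 5, no minimum or a mean of at least 50, a replicate block, removal of a trend with gene length (loess, span 0.5), stricter calls, and each library left out. Medians by arrangement and lists without Vector replicate 2 were added after seeing the data.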

Additional observations from a re-analysis of the deposited data

How the results depend on the processing

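EZH2 stayed lower and past the threshold in every alternative run, and the 27 named members that were called kept their direction in every alternative. Of 802 values of named members under an alternative, 731 kept direction and side of the threshold, 23 lost the call, 17 gained it and 31 changed sign. The cause of these changes was not tested. The number of members higher, 24, was 15 to 34 with a library left out, 5 at an adjusted p under 0.05, 10 above a log2 fold change of 1 and 4 among members with a mean of at least 100. The number lower, 31, was 21 to 43 with a library left out, 7 at an adjusted p under 0.05, 8 above a log2 fold change of 1, 12 at a mean of at least 100 and 18 when only genes with a mean of at least 50 were tested. At the adjusted threshold, 5 higher and 7 lower became 8 and 17 with DESeq2, 2 and 4 with no minimum, and 0 to 13 and 0 to 21 with a library left out. Upper-quartile factors in edgeR and a mean of at least 50 each gave 3 higher. Ratios higher, 20, were 7 to 24 with a library left out, 11 without the length trend, 1 at an adjusted p under 0.05 and 11 above a log2 ratio of 1. Ratios lower, 20, were 10 to 24 with a library left out, 13 at a mean of at least 50, 0 at an adjusted p under 0.05 and 8 above a log2 ratio of 1. The median log2 fold change of the members, -0.01, was -0.0687 with edgeR RLE factors, -0.0766 with upper-quartile factors, -0.0689 with DESeq2 and -0.12 without the length trend.

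Replicate numbers carry no stated pairing, so same-numbered libraries were not taken as pairs. Their deviations correlated at 0.28, 0.22 and -0.11. With the replicate block, 32 members were higher and 38 lower at the unadjusted threshold, and 1 higher and 2 lower at the adjusted one. With the block, ratios gave 21 higher and 19 lower. Vector replicate 3 correlated at 0.25 with shEZH2 replicate 1, and Vector replicate 2 at -0.31. Deviations were taken from the mean of each group, so they cancel within it. With Vector replicate 2 far from the other Vector libraries, these correlations cannot decide whether libraries were paired.

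Signs changed in 11 named members, none of them called. ZFAS1 turned to -0.10, -0.0934, -0.0991 and -0.10 with edgeR RLE, TMM and upper-quartile factors and DESeq2 and to -0.0400 without the length trend. Without that trend AC020916.1 gave 0.21, MCM3AP-AS1 0.0119, TTN-AS1 0.20 and KCNK15-AS1 -0.0830. With a library left out the values ran from -0.53 to 0.55 for ZFAS1, -0.44 to 0.27 for FLJ46906, -0.24 to 0.0772 for AC020916.1, -0.28 to 0.65 for SNHG7, -0.86 to 0.43 for SNHG12, -0.27 to 0.41 for AL590666.2, -0.10 to 0.16 for HAGLR, -0.31 to 0.31 for MCM3AP-AS1, -0.73 to 0.26 for HOTAIRM1, -0.28 to 0.0517 for TTN-AS1 and -0.0223 to 0.22 for KCNK15-AS1.

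Of the 368 members, 255 were under 100 normalized counts. The spread between libraries exceeded counting error, most of all for Vector replicate 2, and which of level and spread limits the calls was not tested.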
